A study of Mus musculus with 6 samples.

Results

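The transcription factor p53, its negative regulator Mdm2 and 8 well-known direct targets of p53 were followed in αTC1 cells treated with an inhibitor of SMNDC1. The 10 genes, Trp53, Mdm2, Cdkn1a, Ccng1, Trp53inp1, Phlda3, Aen, Bbc3, Btg2 and Zmat3, were taken by gene symbol from the 55487 genes of the deposited tables, and 9 of them had enough counts to be tested, among 15082 tested genes. αTC1 is a mouse glucagonoma line, a model of pancreatic α cells that comes from a tumor of mice expressing SV40 T antigen under a glucagon promoter. RNA was sequenced from 3 libraries of cells treated with G786-1089, which was taken to be compound 1 of the study and is called that here, and from 3 libraries of cells treated with its solvent DMSO. The study describes compound 1 as non-selective and reports that it also had effects on SMN, the paralog of SMNDC1. All 6 libraries are from the same line without a further genetic change, and the labels state no dose, duration or sequencing batch.

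p53 is kept low in unstressed cells because Mdm2, a ubiquitin ligase whose own gene is a p53 target, marks it for degradation. When cells are stressed p53 is stabilized and activates genes that arrest the cell cycle, repair DNA or start apoptosis. SV40 large T antigen binds p53 and interferes with its activity, so that the pathway in such a line need not act as in a normal α cell.

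Totals ran from 59070705 to 94747943 counts, and every compound 1 library was deeper than every DMSO library. Counts are not all independent fragments, since 78.1% of those from 1 to 10 were even, and floors given below cover counting error only. Of 8 α cell markers, 7 could be tested. Gcg was abundant in every library, but 4 of the 7 were lower with compound 1 (adjusted p under 0.05 by edgeR), Gcg among them. Over all tested genes 7.8% were lower. The summed level of 16 markers of other cell types was 18.4 to 30.9 CPM (read counts divided by the TMM-adjusted library size) with DMSO and 37.0 to 66.0 CPM with compound 1, with 7 of the 16 at 0 in every library, among them Ins1, Pdx1 and Sst. Most of this sum was Cela1, an elastase gene of acinar cells, with 14.9 ± 6.28 and 33.5 ± 9.43 CPM (SD, n = 3 each, adjusted p = 0.0848 by edgeR), and Cd68, a macrophage marker, with 7.06 ± 1.40 and 11.8 ± 6.28 CPM. The part of these markers in the results below was not tested. In bulk RNA, fewer cells of a type or cycle phase and less RNA per cell cannot be told apart.

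With compound 1, 4 of the 9 tested genes rose and 0 fell, at a p under 0.05 in the quasi-likelihood test of edgeR, adjusted by Benjamini-Hochberg across the tested genes (n = 3 libraries each). They were the p53 regulator Mdm2 and the cell cycle genes Cdkn1a, Ccng1 and Btg2. Over all tested genes, 6.98% rose by this test and 7.8% fell (14.8% in either direction), 1053 against 1177 genes. This split depends on the scaling, and with library size only it was 1630 against 796, while 5 of the 9 genes then rose and 0 fell. With a replicate block by column letter 4 of the 9 rose and 0 fell, with Trp53inp1 in place of Btg2, against 1232 of all tested genes, 524 higher and 708 lower. All 9 genes had a log2 fold change above 0, with a median of 1.15, against a median of 0.041 over all tested genes, of which 51.8% were above 0. In 7 of the 9 genes every compound 1 library was above every DMSO library, against 18.2% of all tested genes (36.7% in either direction), and 7 had an unadjusted p under 0.05 with edgeR, against 14.6% of all tested genes in this direction and 28.1% in either. Each of the 9 passed the filter on low counts in the 3 DMSO libraries alone, so none was tested only because it was high with compound 1. These genes and the lists below were chosen with earlier results of these data known. Their shares beside those of all tested genes therefore describe the lists and are not a test of them. The study's methods used DESeq2 and filtered genes with splicing events at a change of 2-fold or more and an adjusted p up to 0.1. Applied here to the edgeR results, this filter was met by Mdm2, Cdkn1a, Ccng1 and Bbc3, all higher. Of all tested genes, 6.25% met it in this direction and 10.4% in either. In the DESeq2 fit Trp53inp1 met it as well (log2 fold change 2.69, adjusted p = 0.00862 by DESeq2). Values per gene are totals over all its transcripts and do not separate isoforms.

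**Figure D1:**
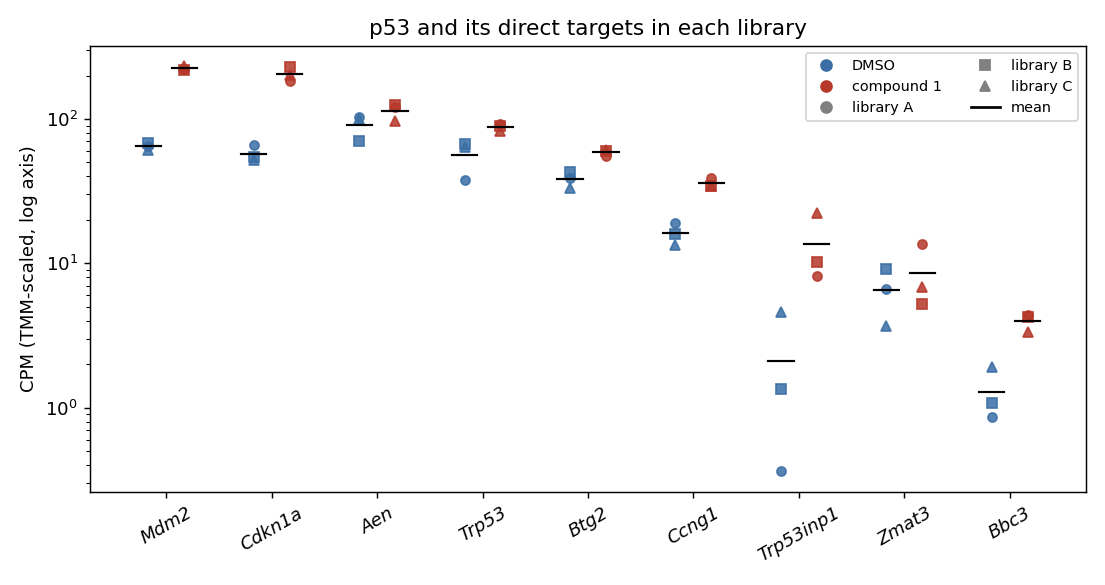
TMM-scaled CPM on a log axis of the 9 tested genes in each of the 3 DMSO libraries (blue) and 3 compound 1 libraries (red), with the marker shape for the library letter and a black line for the mean. The groups are apart for 7 genes and overlap for Aen and Zmat3, and the widest gap relative to the spread is that of Mdm2, from 61.2 to 68.1 CPM with DMSO and 218.0 to 232.4 with compound 1.

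Mdm2 (ENSMUSG00000020184, chromosome 10 of GRCm38, 117688875 to 117710758, reverse strand) had 65.2, 68.1 and 61.2 CPM in the DMSO libraries A, B and C and 223.6, 218.0 and 232.4 CPM in the compound 1 libraries. The groups lay far apart, and the spread within each was the smallest of the 9 genes, with coefficients of variation of 5.37% and 3.24%. The fold change was 3.46, a log2 fold change of 1.79 (standard error, SE, 0.09, adjusted p = 0.000174 by edgeR). The annotation shows no exon of another gene over its exons.

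Cdkn1a encodes p21, the inhibitor of cyclin-dependent kinases through which p53 arrests the cell cycle. This gene (ENSMUSG00000023067, chromosome 17, 29090976 to 29100727, forward strand) had 66.4, 54.3 and 51.8 CPM with DMSO and 183.9, 229.7 and 200.6 CPM with compound 1. No library came near the other group. Its level was 3.56-fold higher with compound 1, 1.83 on the log2 scale (SE 0.14, adjusted p = 0.000678 by edgeR). In GENCODE vM21, 273 of its 2718 exon bases overlap AC167363.2, a name that has no row in the deposited tables, and stretches of up to 165 bases are near-identical to parts of 96 other genes.

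Ccng1 encodes cyclin G1, which recruits a phosphatase to Mdm2. It had 19.0, 16.0 and 13.4 CPM with DMSO and 39.1, 34.1 and 34.4 CPM with compound 1 (ENSMUSG00000020326, chromosome 11, 40748552 to 40755311, reverse strand). The compound 1 libraries were all above the DMSO libraries, by 2.22-fold (log2 fold change 1.15, standard error 0.20, edgeR adjusted p = 0.0123). Btg2, an antiproliferative gene that is also an early response gene, had 39.1, 43.2 and 33.2 CPM with DMSO and 55.1, 60.2 and 61.4 CPM with compound 1 (ENSMUSG00000020423, chromosome 1, 134075170 to 134079120, reverse strand). Its groups did not overlap either, and its rise was the smallest of the 4, with a log2 fold change of 0.61 (SE 0.16, adjusted p = 0.0429 by edgeR). This call was the least secure: without any 1 of the 6 libraries the edgeR adjusted p of Btg2 was 0.0657 to 0.122, and with a replicate block by column letter 0.104.

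The gene of p53 itself did not pass the test. Trp53 (ENSMUSG00000059552, chromosome 11, 69580359 to 69591873, forward strand) had 37.6, 66.8 and 64.1 CPM with DMSO and 92.9, 89.2 and 82.2 CPM with compound 1. Every compound 1 library was above every DMSO library, and DMSO library A was well below the other two. The difference on the log2 scale was 0.65 (SE 0.23, adjusted p = 0.115 by edgeR), and without DMSO library A it was 0.43. DESeq2 gave an adjusted p of 0.0311, and scaling by library size only gave 0.0456 with edgeR. The counts measure transcripts and not the p53 protein, whose amount is set mainly by its stability.

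Bbc3 and Trp53inp1, both tied to cell death, were higher in every compound 1 library but did not pass, and with DMSO both were under 1 FPKM on average, as was Zmat3. Bbc3 encodes Puma, which binds the antiapoptotic members of the Bcl2 family (ENSMUSG00000002083, chromosome 7, 16308393 to 16318205, forward strand). It had 0.855, 1.08 and 1.91 CPM with DMSO, from 52, 70 and 104 counts, and 4.39, 4.22 and 3.33 CPM with compound 1, from 328, 423 and 289 counts. The groups did not overlap, but the log2 fold change was 1.63 with an SE of 0.53 and did not pass (adjusted p = 0.0932 by edgeR).

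Trp53inp1 encodes a stress protein that promotes autophagy and cell death (ENSMUSG00000028211, chromosome 4, 11156431 to 11174379, forward strand). Its levels were 0.362, 1.34 and 4.60 CPM with DMSO, from 22, 87 and 250 counts, and 8.18, 10.3 and 22.3 CPM with compound 1, from 612, 1028 and 1935 counts. The fitted log2 fold change of 2.69 was the largest of the 9 genes, as was its SE of 0.93 (adjusted p = 0.109 by edgeR). Within each group library C was the highest, and the coefficients of variation were 105.7% with DMSO and 56.1% with compound 1. Without DMSO library C the log2 fold change was 3.99, and over the 6 runs with a library left out the adjusted p by edgeR was 0.0512 to 0.262. In the fit with a block by column letter it was 0.0481. DESeq2 gave an adjusted p of 0.00862 for Trp53inp1 and 0.0237 for Bbc3.

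Aen, a nuclease that degrades DNA during apoptosis, and Zmat3, a zinc finger protein that binds RNA, had groups that overlap. Aen (ENSMUSG00000030609, chromosome 7, 78895854 to 78911209) had 104.1, 70.1 and 99.4 CPM with DMSO and 120.2, 124.5 and 96.9 CPM with compound 1, a log2 fold change of 0.32 (SE 0.19, adjusted p = 0.32 by edgeR). Zmat3 (ENSMUSG00000027663, chromosome 3, 32334792 to 32366014) had 6.59, 9.14 and 3.70 CPM with DMSO and 13.6, 5.23 and 6.87 CPM with compound 1. Its log2 fold change of 0.40 was smaller than its standard error of 0.51 (adjusted p = 0.68 by edgeR). Without compound 1 library A it was -0.10.

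Phlda3, which competes with the kinase Akt for membrane lipids and so opposes survival signalling, could not be tested (ENSMUSG00000041801, chromosome 1, 135766119 to 135769136). It had 0 counts in each of the 6 libraries. With counts taken as independent fragments, this allows 3 counts in each, or up to 0.0300 CPM in one library to 0.0552 CPM in another. Where they are not independent, it allows more. No other annotated gene overlaps the exons of Phlda3. Of 21936 protein-coding genes, 34.9% were at 0 in every library.

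Levels per length can be compared between genes with the deposited FPKM values. With DMSO, Trp53 had the highest FPKM, 27.6 ± 7.92 (SD, n = 3), followed by Cdkn1a with 19.4 ± 2.63, Mdm2 with 18.9 ± 0.973, Aen with 16.3 ± 3.31 and Btg2 with 12.9 ± 1.65. The ranges of neighbours in this order overlapped, so that the order of neighbours among these 5 is not resolved. Btg2, with at most 14.4 FPKM, was below every library of Trp53, Cdkn1a and Mdm2. Ccng1 was below all 5 with 4.22 ± 0.723, and Zmat3, Bbc3 and Trp53inp1 were under 1 FPKM on average, with ranges that overlap from each to the next. With compound 1, Cdkn1a had 69.1 ± 8.22 FPKM and Mdm2 65.5 ± 1.83, overlapping each other and both above Trp53 with 43.2 ± 2.73. Aen with 20.3 ± 2.72 and Btg2 with 19.7 ± 1.14 overlapped below it. Ccng1 stood alone at 9.36 ± 0.698, Trp53inp1 and Bbc3 overlapped at 2.30 ± 1.29 and 2.01 ± 0.291, and Zmat3 had 1.01 ± 0.518. Relative to the other genes, Trp53 thus had the highest mean of the 10 with DMSO and the third with compound 1.

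**Figure D2:**
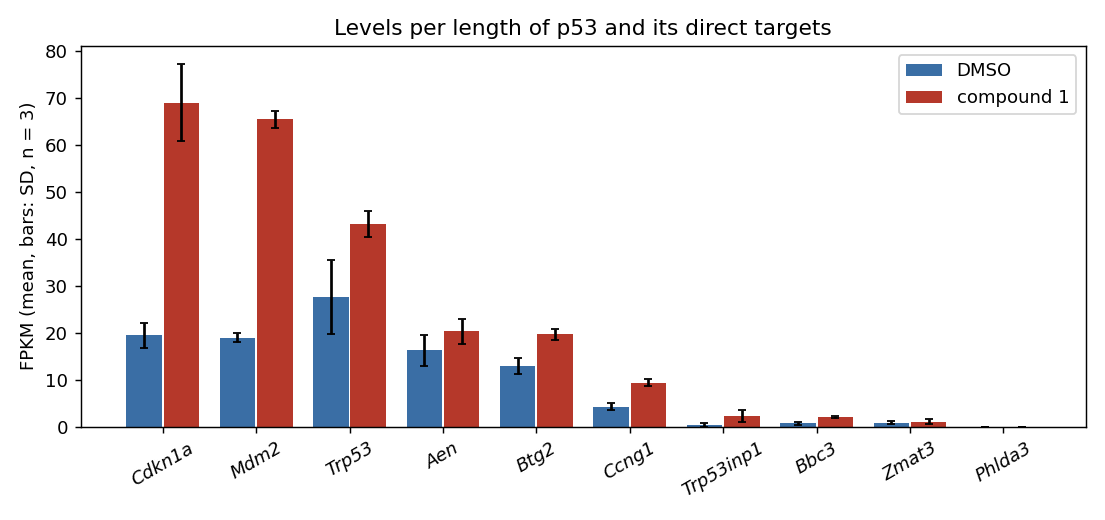
Deposited FPKM values, a level per length, of all 10 genes as means of 3 DMSO (blue) and 3 compound 1 libraries (red), with bars for the SD. Cdkn1a and Mdm2 stand near Trp53 with DMSO and above it with compound 1, at 69.1 and 65.5 against 43.2 FPKM, and Phlda3 is at 0 in both.

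p53 binds DNA as a tetramer at the p53 consensus response element, a pair of decamer half-sites. This element was searched for without a spacer in the RefSeq windows of GRCm38 from 250 bases before to 50 bases after the annotated starts, reading both strands at once because the consensus is palindromic. The C and G at the core of each half-site had to be present. Of the 10 genes, 8 had windows, 12 in all, and Trp53inp1 and Zmat3 had none. Of the 12 windows, 6 held the element with at most 3 mismatches, against 1.38% of the 32851 windows of all genes. They belong to 5 genes, since overlapping windows of Aen held the same element. In 2 of the 12 windows, of Cdkn1a and Ccng1, it had 1 mismatch, against 0.067% of all windows with at most 1. The genes were chosen as p53 targets, so these matches describe the windows and are neither a test nor evidence of binding. The sequences are shown because they are the best matches without a spacer in the windows of these genes, on the strand of each gene, with the pair of half-sites in capitals.
Cdkn1a, chr17:29090903-29090972, 1 mismatch: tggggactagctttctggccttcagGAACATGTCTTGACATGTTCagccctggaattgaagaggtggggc
Ccng1, chr11:40755437-40755506, 1 mismatch: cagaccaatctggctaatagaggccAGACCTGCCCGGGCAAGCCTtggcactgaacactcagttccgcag
Bbc3, chr7:16309461-16309530, 3 mismatches: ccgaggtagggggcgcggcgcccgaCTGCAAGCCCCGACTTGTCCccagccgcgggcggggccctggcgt
Trp53, chr11:69580259-69580328, 3 mismatches: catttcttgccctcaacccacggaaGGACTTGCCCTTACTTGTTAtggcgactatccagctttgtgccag
Aen, chr7:78895937-78895956, 3 mismatches: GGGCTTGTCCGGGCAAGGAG

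The element begins 51 bases before an annotated start of Cdkn1a and 195 bases before that of Ccng1, the genes that rose by 3.56 and 2.22-fold. For Cdkn1a this is the upstream one of its annotated starts. When a spacer of up to 13 bases was allowed, the same window of Cdkn1a also held an element with 0 mismatches and a spacer of 12 bases, against 0.0731% of all windows, which shares a half-site with the one shown. The element begins 97 bases before a start of Bbc3 and 75 before that of Trp53, and that of Aen lies in an exon. None of these 3 genes passed the test at an adjusted p under 0.05, although Bbc3 met the filter of the study's methods. Mdm2, with the smallest adjusted p of the 9 genes, had no match within 3 mismatches in its window, with or without a spacer. The p53 sites of Mdm2 are known to lie in its first intron, outside the window searched. Btg2 and Phlda3 had no such match in these windows either. Any relation between these matches and the changes was not tested.

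A further 30 genes known as p53 targets were described in the same way, and 24 of them could be tested. Of these, 6 rose and 0 fell, against 6.98% and 7.8% of all tested genes. Of the 24, 5 genes with a log2 fold change above 0, Fas among them, were over the count cutoff in too few DMSO libraries. They would not have been tested without their compound 1 libraries. Among the other 19 genes, 5 rose and 0 fell, 10 had a log2 fold change above 0 and 9 below, and the median was 0.09. Plk3 and Plk2, polo-like kinases induced by stress, and Sesn2, a sestrin that restrains mTORC1 signalling, had the smallest p-values. Plk3 went from 46.2 ± 1.05 to 397.4 ± 78.7 CPM (SD, n = 3 each), a log2 fold change of 3.10 (SE 0.16, adjusted p = 0.000178 by edgeR). The log2 fold change of Plk2 was 1.10 (SE 0.08, adjusted p = 0.000412 by edgeR) and that of Sesn2 1.18 (SE 0.13, adjusted p = 0.00229 by edgeR). Sesn2 and the Plk genes are also known to respond to stress without p53. With each library left out in turn, these 3 genes passed every time.

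The other genes that rose are named because they complete the count, and were chosen after their values were seen. They were the death receptor gene Fas, the damage sensor Ddb2 and Pidd1, which encodes the scaffold of the PIDDosome. Fas had 0, 0 and 4 counts in the DMSO libraries and 514, 364 and 196 counts in the compound 1 libraries, so that it was tested only through its compound 1 libraries and the size of its change is not known (adjusted p = 0.0236 by edgeR). Ddb2 went from 2.61 ± 0.314 to 7.77 ± 0.302 CPM (adjusted p = 0.0273 by edgeR), with 26.7% of its exon bases shared with Acp2 and not separated by strand. Pidd1 went from 24.2 ± 15.6 to 115.9 ± 14.5 CPM (adjusted p = 0.0466 by edgeR). With a library left out the list had 4 risen genes, but 3 without compound 1 library A or C, and 3 risen and 1 fallen without compound 1 library B. With RLE factors 6 rose and 1 fell. Fas and Pidd1 each passed in 1 of the 6 runs and Ddb2 in 0, and with a replicate block by column letter none of the 3 passed (adjusted p = 0.0754, 0.0543 and 0.103 by edgeR for Fas, Pidd1 and Ddb2).

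The genes of this list were not alike. Of the 10 genes tied to cell death, 6 could be tested and 2 passed, Fas and Pidd1, of which Fas was tested only through its compound 1 libraries. Bax, the pore-forming effector of apoptosis, was at -0.07 on the log2 scale (SE 0.11). Pmaip1, which encodes Noxa, had 0 counts in every library and Tnfrsf10b at most 2. Perp had 0 counts in the DMSO libraries and 0, 24 and 362 with compound 1, and was not tested. Gadd45a, a growth arrest gene, was abundant with a log2 fold change of -0.09 (SE 0.10). Sesn1, a sestrin gene like Sesn2, was at -0.77 on the log2 scale (SE 0.23, adjusted p = 0.0709 by edgeR).

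Of 18 genes that regulate p53 or share its family, 16 could be tested. Mdm4, which encodes a partner of Mdm2 that blocks the activity of p53, Rchy1, another ubiquitin ligase for p53, and the damage kinase gene Atr rose, and 0 fell. Mdm4 went from 8.43 ± 2.80 to 32.1 ± 8.48 CPM (SD, n = 3 each), a log2 fold change of 1.93 (SE 0.33, adjusted p = 0.0119 by edgeR). Rchy1 had a log2 fold change of 0.81 (adjusted p = 0.0372 by edgeR), and 17.7% of its exon bases overlap Thap6. Atr had a log2 fold change of 2.14 (adjusted p = 0.0326 by edgeR) at under 5 CPM in every library. The 3 calls, 18.8% against 6.98% of all tested genes, were not secure. Only Mdm4 passed in most of the runs with a library left out, in 5 of 6, with an edgeR adjusted p of 0.0534 without DMSO library B. Rchy1 and Atr passed in none of the 6, so that 0 or 1 gene of the list was left in each run. With a replicate block by column letter 1 gene passed, Mdm4, and not Rchy1 or Atr (adjusted p = 0.0785 and 0.106 by edgeR). Cdkn2a, whose product ARF inhibits Mdm2, had a log2 fold change of -0.32 with an SE of 0.998, and Trp63 and Trp73 were too low to be tested. Trp73 had 24, 2 and 87 counts in the DMSO libraries and 0 in each compound 1 library. Trp63 had 20 counts in compound 1 library B and 0 in every other library.

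p21 is known to lower many cell cycle genes through the DREAM repressor complex. Of 20 such genes, all tested, 8 fell and 0 rose with compound 1, 40.0% against 7.8% of all tested genes, with a median log2 fold change of -0.48. The log2 fold change was above 0 in 8 of the 20 genes and below 0 in 12. Any part of p21 or DREAM in these changes was not tested. Plk1, a mitotic kinase gene, fell most, from 148.9 ± 11.7 to 38.6 ± 4.62 CPM (SD, n = 3 each), a log2 fold change of -1.95 (SE 0.14, adjusted p = 0.000436 by edgeR). Birc5, which encodes survivin, had a log2 fold change of -0.93 (adjusted p = 0.000799 by edgeR) and the cyclin gene Ccnb2 of -1.13 (adjusted p = 0.00242 by edgeR). Mki67, a marker of proliferation, was at 0.10 on the log2 scale (SE 0.20) and E2f1, a cell cycle transcription factor gene, at 0.12 (SE 0.22). With each library left out in turn, 6 of the 8 passed every time. With library size only, 6 fell and 0 rose, and with a replicate block by column letter 5 fell.

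**Figure D3:**
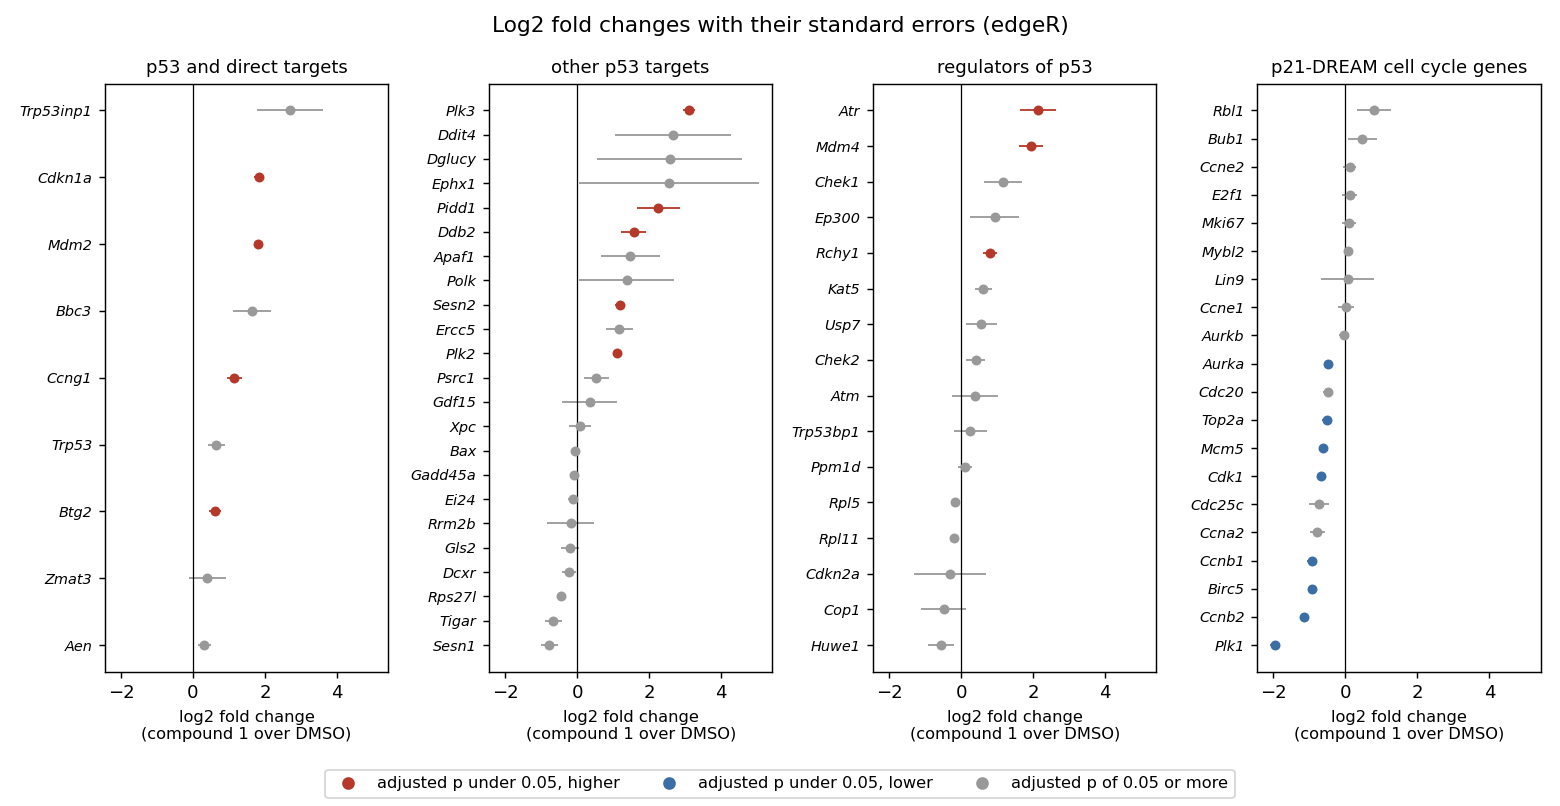
Log2 fold changes of compound 1 over DMSO (points) with standard errors (bars) from edgeR for the tested genes of 4 lists, in red or blue where the adjusted p was under 0.05. All 9 points of the first list are above 0, the lists of other targets and regulators spread to both sides, and the 8 called cell cycle genes are all below 0; Fas is not drawn because the size of its change is not known.

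The calls of Mdm2, Cdkn1a and Ccng1 did not depend on 1 library or on the scaling. With each library left out in turn, their log2 fold changes were 1.75 to 1.83, 1.74 to 1.94 and 1.03 to 1.28, with edgeR adjusted p-values of at most 0.00299, 0.00675 and 0.0494. Under the 10 other ways of testing, scaling and filtering their adjusted p was under 0.05 each time (edgeR, DESeq2 or limma), and with counts thinned to the lowest library total they were 1.78, 1.82 and 1.15. The plot of settings shows the same for each gene.

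**Figure D4:**
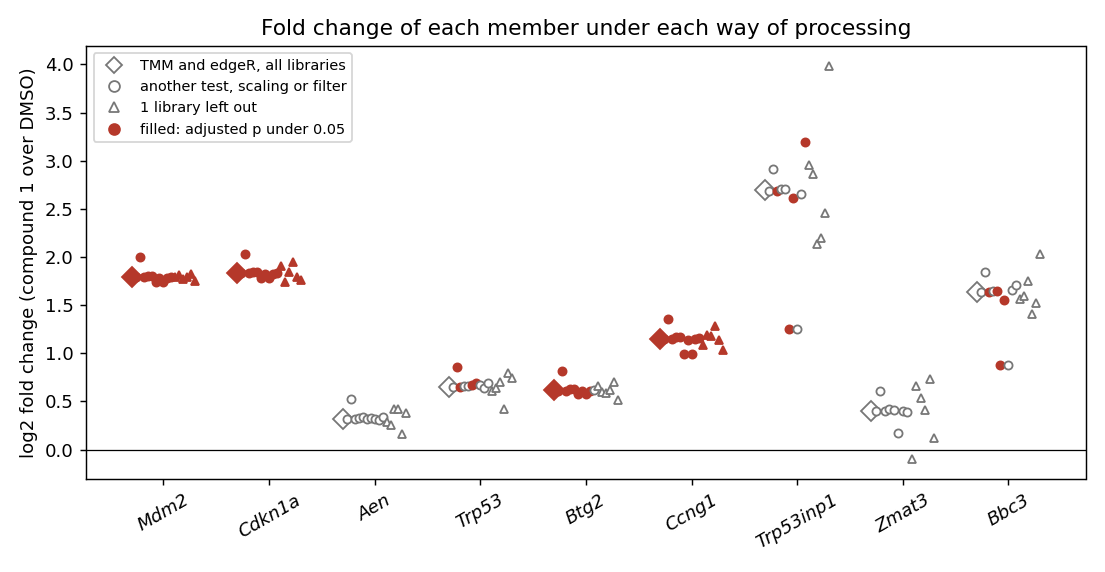
Log2 fold change (compound 1 over DMSO) of each of the 9 tested genes with TMM and edgeR (diamonds), with other tests, scalings or filters (circles) and with 1 library left out (triangles), filled where the adjusted p was under 0.05. Mdm2, Cdkn1a and Ccng1 are filled throughout, Btg2 is open with any library left out, and Trp53inp1 has the widest range, from 1.25 to 3.99.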

How the data were processed

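The authors prepared libraries with Smart-seq2, which keeps no strand, aligned paired reads to GRCm38 with STAR (2.7.9a in the submitters' processing notes) and counted alignments on Ensembl transcripts. The deposited counts are whole numbers summed per gene without normalization. The authors also deposited FPKM values, whose scaling is not given in the sources used here. Columns carry the treatment and a letter, so groups follow from the column names but the replicate numbers of the labels do not. For its cell culture work in general, the study states that each replicate's treatments started from cells of a common batch and were handled side by side. Whether a column letter stands for such a replicate is not stated, nor how far replicates are independent, so p-values measure the spread between these libraries, which may be technical.

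Tests of the counts used edgeR 4.0.16 in R 4.3.3 (genes kept by filterByExpr at its minimum count, 10, and minimum total, 15, TMM, quasi-likelihood test, Benjamini-Hochberg adjustment). The standard error was obtained from the size of the log2 fold change over the root of the F statistic. CPM are scaled by TMM. Alternatives were DESeq2 1.42.0, limma 3.58.1 on log2(FPKM + 1) or log2(FPKM + 0.1), whose fold changes understate those of low genes, other scalings and filters, thinned counts, a block by column letter and leaving out each library. No exact permutation test was used, since p = 0.1 is the smallest that groups of 3 allow.

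Each test across genes was first tested on simulated data. Positions are those of the files, exon overlaps are from GENCODE vM21, near-identical stretches (at least 100 bases at 95% identity) were found with blastn 2.17.0, and promoter windows are from RefSeq for GRCm38. The genes and lists, written from general knowledge, were chosen with earlier results of these data known. All 10 genes could be named, and from each other list up to 3 risen and 3 fallen genes with the smallest p and an adjusted p under 0.05, genes whose exons overlap those of the 10, and genes with at most 3 counts in every library. Other genes of the lists that are named were chosen after their values were seen. The result of 1 marker gene is not reported here.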

Additional observations from a re-analysis of the deposited data

How the results depend on the processing

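All 9 tested genes kept a log2 fold change above 0 in every setting run, except Zmat3 at -0.097 without compound 1 library A (0.731 at the highest with another library left out). With DESeq2, 7 of the 9 tested genes were called in place of 4, against 3667 of 15082 over all tested genes. Limma on log2(FPKM + 1) or log2(FPKM + 0.1), for genes of at least 1 FPKM, tested 8 of the 10 and called 7. Over all genes these limma fits called 2957 and 2861 of 10610. The genes of the 10 added in these 3 fits were Trp53 (log2 fold changes 0.647, 0.668 and 0.687), Trp53inp1 (2.689, 1.25 and 2.61) and Bbc3 (1.635, 0.877 and 1.549). Trp53 also passed with library size only (0.855), a scaling that moves the median of all genes to 0.246 from 0.041, and Bbc3 with at least 10 counts in every library (1.646). Deviations of columns of the same letter from their group means had correlations of 0.00228 to 0.0185 across all tested genes. Such values cannot exclude pairing, and Trp53inp1 rose from library A to C in both groups. The sources do not tie a letter to a replicate, so the letters were not taken to pair the libraries. With a replicate block by column letter 4 of the 10 were called, with Trp53inp1 (3.198) in and Btg2 (0.62) out. With that block the calls were 3 of the other targets, 1 regulator, 5 cell cycle genes and 1232 of all genes. With a library left out 3 of the 10 were called each time, and Btg2 had 0.512 to 0.701. The other targets then had 3 to 4 calls (1 of them lower without compound 1 library B), the regulators 0 to 1 and all genes 1253 to 1556, against 2230 (each with fewer libraries). Other targets had 10 calls with DESeq2 (7 higher, 3 lower) and 10 in each limma fit with a minimum (8 higher, 2 lower), and 1 lower call each with RLE factors, with at least 10 counts in every library and with limma without a minimum. Regulators had 1 call with limma without a minimum. The filter of the methods left 2 cell cycle genes, Ccnb2 and Plk1. DESeq2 called 3667 of all genes. The causes were not tested. Depth sets the floor for Phlda3, and thinning to the lowest total changed no call of the 10.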
